A study of Oryza sativa Japonica Group with 22 samples.

Results

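The alpha-globulin gene Os05g0499100 and the 7 seed albumin genes of the RA family were followed in milkripe rice seeds, harvested 10 days after flowering, of lines that carry a foreign seed albumin, a foreign enzyme of sulfur amino acid synthesis, or both. The members were taken by identifier: Os05g0499100 for alpha-globulin and Os07g0213800, Os07g0214100, Os07g0214300, Os07g0214600, Os07g0215500, Os07g0216600 and Os07g0216700 for RA. All 8 of them, of 38866 genes in the count tables, passed the filter on low counts, which 26821 genes passed.

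Rice stores seed protein mainly as glutelins and prolamins, with smaller amounts of globulin and albumin. Alpha-globulin is a sulfur-rich storage protein of the endosperm that is made on the rough endoplasmic reticulum and carried to protein storage vacuoles, where glutelins also end up. The RA proteins are small, cysteine-rich, salt-soluble seed albumins related to the alpha-amylase and trypsin inhibitors of cereals, and are known as rice seed allergens. Both kinds fold in the endoplasmic reticulum with disulfide bonds, and their genes are most active in the developing endosperm. The roles of single RA genes are not distinguished here.

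The 22 libraries came from 6 lines. SSA (n = 3) carries HaSSA, a methionine-rich 2S albumin of sunflower held in the endoplasmic reticulum by a retention signal and driven by a wheat glutenin promoter that is active in the endosperm. CGS × SSA (n = 4) carries HaSSA and AtD-CGS, a feedback-desensitized cystathionine gamma-synthase of Arabidopsis. SAT × SSA (n = 3) carries HaSSA and EcSAT, the serine acetyltransferase of E. coli. CGS (n = 5) carries AtD-CGS alone, SAT (n = 3) carries EcSAT alone, and both enzymes are sent to the chloroplast and driven by a maize ubiquitin promoter. Taipei (n = 4) is Taipei 309, the untransformed japonica parent of all the transgenic lines. Each single transgenic line goes back to a single line of transformed plants, and both double lines were bred by pollinating CGS or SAT plants with SSA, with segregants of a cross merged, so the 3 lines with HaSSA share 1 origin of that transgene, and HaSSA and its place of insertion cannot be told apart. Every library was made from the rRNA-depleted RNA of seeds of 1 plant, harvested by panicle, and p-values measure the spread between plants of a line.

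Levels are given as CPM, counts of uniquely mapped reads scaled to a common library size by TMM, a method that sets the bulk of genes level. A fall or a rise was called in edgeR where the adjusted p was under 0.01, the limit that the study used. Library totals in genes ranged from 29642343 to 41585957 reads, and the members had 1795 to 498260 reads in a library, so counting error is small beside the spread between libraries. Only uniquely mapped reads were counted, and the RA genes form a family of like sequences, so the division of reads among them is uncertain. Gene lengths were not used here, so levels are compared between lines and not between genes. Seeds were sequenced whole, so fewer cells of a type and less RNA per cell cannot be told apart. The members had 0.0584% to 0.45% as many reads on the opposite strand.

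Some library measures moved with HaSSA. The share of reads left unmapped was 2.87% to 8.07% in the 10 libraries with HaSSA and 0.630% to 0.920% in the 12 without it. Reads were aligned to the rice genome, and the study searched those left unmapped for the transgenes. Reads of HaSSA therefore count as unmapped here, and how many of the unmapped reads they make up was not computed. In SSA replicate 3, which is the lowest of all 22 libraries for each of the 8 members, 6.90% of reads did not map and 17.4% mapped to several places, both within the range of other libraries: 3 CGS × SSA libraries had 7.47% to 8.07% unmapped, and CGS replicate 4 also had 17.4% mapped to several places. The share of reads outside genes was 20.3% in SAT × SSA replicate 1, against 11.8% to 14.9% in the other 21 libraries. The part of these measures in the results was not tested. Fold changes without SSA replicate 3 are given for some members in comparisons that use SSA. Correlations between members within the libraries with HaSSA are also given without it. The correlations over all 22 libraries, the shares of reads and the make-up of the RA reads include it. So do the overlaps between lines, the counts at an unadjusted p and the lists of other genes.

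Alpha-globulin and RA transcripts were lower in seeds with HaSSA. Averaged over the 3 pairs of lines that differ by HaSSA (SSA against Taipei, CGS × SSA against CGS, SAT × SSA against SAT, which share no library), 7 of the 8 members fell and none rose, while 6.11% of all genes tested were called lower and 6.14% higher. The median log2 fold change of the members was -1.46, and that of all genes tested was 0.00053. Alpha-globulin fell by 1.20 on the log2 scale (SE 0.141, adjusted p = 6.17e-06), and within the RA family the largest fall was that of Os07g0214100, with a log2 fold change of -1.85 (SE 0.269, adjusted p = 0.000148). The exception was Os07g0216600, with a log2 fold change of -0.68 (SE 0.208, adjusted p = 0.0231). The count of 7 was the same whichever of the 22 libraries was left out, and with SSA replicate 3 and SAT × SSA replicate 1 both left out. Without SSA replicate 3 the log2 fold change was -1.09 for alpha-globulin, -1.69 for Os07g0214100 and -0.55 for Os07g0216600. DESeq2 called all 8 lower, against 8.04% of the genes it tested. The falls of the other RA genes were -1.54 for Os07g0215500 (SE 0.16, adjusted p = 1.46e-06), -1.68 for Os07g0214600, -1.47 for Os07g0213800, -1.44 for Os07g0214300 and -0.88 for Os07g0216700, all on the log2 scale with adjusted p of at most 0.00148.

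Alpha-globulin had 5201, 4966 and 2115 CPM in the SSA libraries. It had 7120, 5072, 5654 and 7280 CPM in CGS × SSA and 6228, 5431 and 6688 CPM in SAT × SSA. Every one of these 10 libraries with HaSSA lies below every one of the 12 libraries without it. In the lines without HaSSA, alpha-globulin had 10761, 14908, 12743, 13445 and 9162 CPM in CGS, 10587, 9972 and 15155 CPM in SAT, and 16184, 13287, 10659 and 12081 CPM in Taipei. The highest library with HaSSA stood at 7280 CPM and the lowest without it at 9162 CPM. The mean was 5576 ± 1480 CPM (SD, n = 10) with HaSSA and 12412 ± 2250 CPM (n = 12) without.

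Os07g0215500 is the RA gene that follows the same division. It had 2417, 2336 and 768 CPM in SSA, 3496, 2256, 2698 and 3624 CPM in CGS × SSA, and 3310, 2896 and 3533 CPM in SAT × SSA. It had 6856, 6563, 7997, 5869 and 4978 CPM in CGS, 8122, 7054 and 9491 CPM in SAT, and 10222, 8649, 7426 and 7068 CPM in Taipei. Again no library with HaSSA reached the lowest library without it, at 4978 CPM. Alpha-globulin and Os07g0215500 were the 2 members for which all 10 libraries lay below all 12, a division that 38 of the genes tested showed, or 0.142%. They were also the 2 with no overlap in any of the 3 pairs of lines, which held for 0.559% of genes. For Os07g0213800, Os07g0214100 and Os07g0214600, 9 of the 10 libraries with HaSSA lay below all libraries without it, for Os07g0214300 and Os07g0216700 8 did, and for Os07g0216600 6 did.

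**Figure D1:**
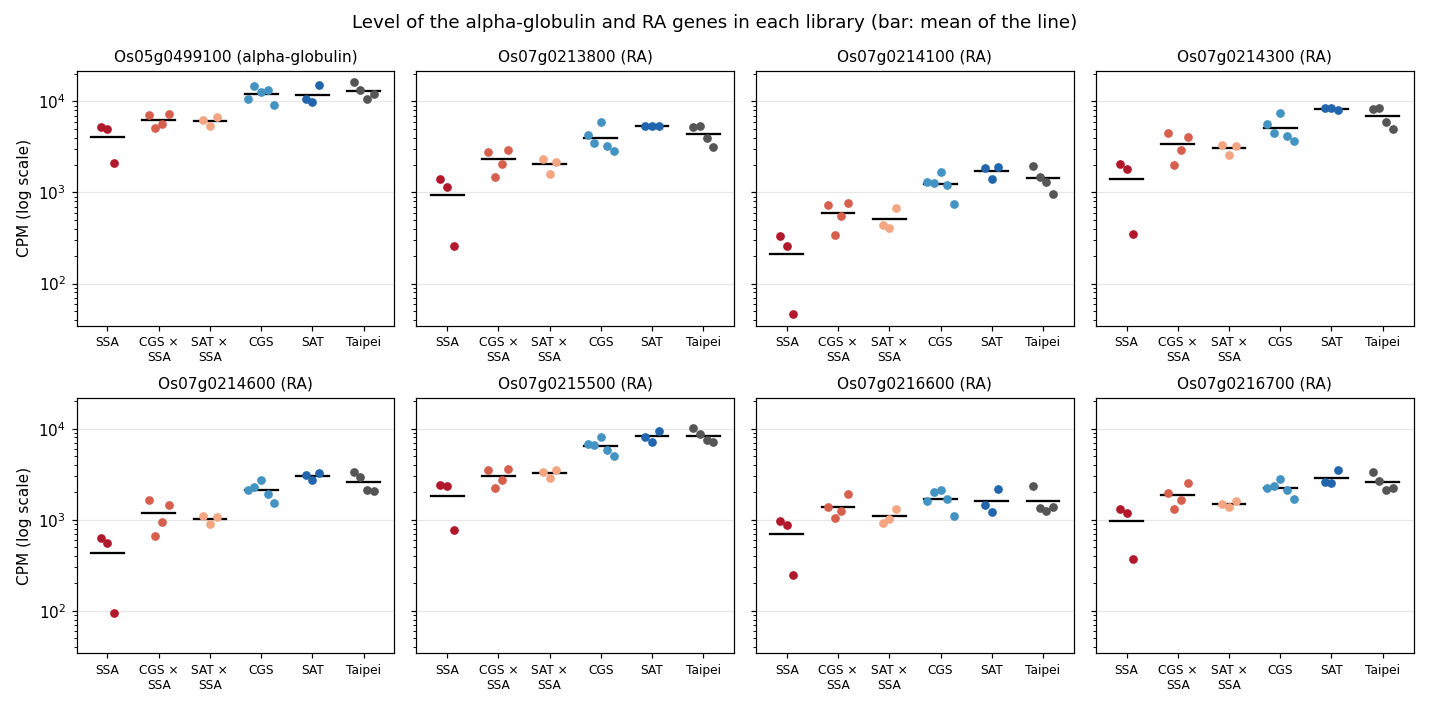
CPM on a log scale (vertical axis) of the alpha-globulin gene and the 7 RA genes in each library (points) of the 6 lines (horizontal axis), with the mean of the line as a bar. The lowest point of every panel is SSA replicate 3, and for Os05g0499100 the 10 libraries of the 3 lines with HaSSA lie at or below 7280 CPM, below the 12 others at 9162 CPM or more.

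The RA gene with the largest fall was Os07g0214100. Its levels were 334, 255 and 46.1 CPM in SSA, 725, 339, 550 and 773 CPM in CGS × SSA, and 437, 407 and 674 CPM in SAT × SSA. They were 1297, 1277, 1669, 1208 and 739 CPM in CGS, 1835, 1389 and 1902 CPM in SAT, and 1952, 1490, 1303 and 954 CPM in Taipei. The lowest CGS library, replicate 5, lies just under the highest CGS × SSA library, and apart from that the libraries with HaSSA are all below those without it.

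The smallest difference was seen in Os07g0216600. It had 963, 874 and 246 CPM in SSA, 1363, 1035, 1252 and 1893 CPM in CGS × SSA, and 918, 1026 and 1328 CPM in SAT × SSA. The lines without HaSSA had 1597, 2027, 2133, 1669 and 1102 CPM in CGS, 1438, 1214 and 2159 CPM in SAT, and 2370, 1362, 1246 and 1384 CPM in Taipei. All 3 SSA libraries, 2 of SAT × SSA and 1 of CGS × SSA lie below every library without HaSSA, and the other 4 of the double lines lie among them.

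The other RA genes lay between these extremes. Os07g0213800 ranged from 259 to 2959 CPM (median 1820) in the libraries with HaSSA and from 2821 to 5950 CPM (median 4727) in those without. For Os07g0214300 the ranges were 351 to 4500 CPM (median 2753) with HaSSA and 3699 to 8481 CPM (median 6710) without. Os07g0214600 had 93.5 to 1630 CPM (median 918) with HaSSA and 1531 to 3321 CPM (median 2483) without. In these genes the overlap lies between the top libraries of CGS × SSA and the bottom ones of CGS. Os07g0216700 overlapped more, with 370 to 2525 CPM (median 1440) with HaSSA and 1710 to 3533 CPM (median 2424) without.

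In the line with HaSSA alone, 7 of the 8 members were lower than in Taipei, where 0.63% of all genes tested were called lower. Alpha-globulin averaged 4094 ± 1718 CPM in SSA (SD, n = 3) and 13053 ± 2348 CPM in Taipei (n = 4), a log2 fold change of -1.67 (SE 0.255, adjusted p = 0.000271). The RA genes that fell had log2 fold changes from -2.75 for Os07g0214100 (SE 0.499, adjusted p = 0.00259) to -1.43 for Os07g0216700 (SE 0.316, adjusted p = 0.00943). Os07g0216600 averaged 694 ± 391 CPM in SSA and 1591 ± 523 CPM in Taipei, and its log2 fold change of -1.20 (SE 0.374) had an adjusted p of 0.0697. For all 8 members every SSA library lay below every Taipei library, which was so for 10% of the genes tested.

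The differences were smaller without SSA replicate 3. SSA replicate 1 was 2.46 times as high as replicate 3 for alpha-globulin and 7.26 times for Os07g0214100. Without replicate 3, the log2 fold change of alpha-globulin was -1.36 (adjusted p = 0.00109) and that of Os07g0214100 was -2.27 (adjusted p = 0.00173), and 6 members fell. Os07g0216700 then stood at -1.04 with an adjusted p of 0.0200, and it lost its call without any library of the 7 but SSA replicate 1. Without the filter on low counts 6 members fell, as Os07g0216700 missed the limit (adjusted p = 0.0188). The same gene alone lost its call with counts of both strands (adjusted p = 0.0111) and with the replicate number as a block (adjusted p = 0.0245). It was also the 1 gene lost without SSA replicate 3 and SAT × SSA replicate 1 (adjusted p = 0.0250). Without Taipei replicate 2, 4 members fell, and Os07g0213800 (adjusted p = 0.01005) and Os07g0214300 (adjusted p = 0.0125) also missed the limit. Os07g0214300 missed it without Taipei replicate 1 too (adjusted p = 0.0114). In a fit of the SSA and Taipei libraries alone, where the spread of SSA is not shared with the other lines, the 7 members had adjusted p-values from 0.0169 for alpha-globulin to 0.126 for Os07g0216700, all above the limit. DESeq2, fitted to all libraries, called 7 members lower, against 1.31% of the genes it tested.

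In the AtD-CGS background, 2 members fell with HaSSA where 2.05% of genes were called lower. Alpha-globulin averaged 6282 ± 1089 CPM in CGS × SSA (SD, n = 4) and 12204 ± 2263 CPM in CGS (n = 5), a log2 fold change of -0.96 (SE 0.218, adjusted p = 0.00741). Os07g0215500 averaged 3019 ± 653 CPM in CGS × SSA and 6453 ± 1127 CPM in CGS (log2 fold change -1.10, SE 0.244, adjusted p = 0.00685). These were also the 2 members with no overlap between the lines, which 5.83% of genes showed. The log2 fold changes of the other 6 members were below 0, from -1.05 for Os07g0214100 to -0.26 for Os07g0216700, with adjusted p-values from 0.117 to 0.618. Neither call is far from the limit: alpha-globulin missed it without any of 7 of the 9 libraries (all but CGS replicates 1 and 5), with adjusted p up to 0.0306, and Os07g0215500 without any of 8 (all but CGS replicate 5), with adjusted p up to 0.0278. Both also missed it without the filter on low counts, at 0.0106 and 0.0125.

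In the EcSAT background, 1 member, Os07g0215500, fell with HaSSA where 2.66% of genes were called lower. It averaged 3246 ± 323 CPM in SAT × SSA (SD, n = 3) and 8222 ± 1222 CPM in SAT (n = 3), a log2 fold change of -1.34 (SE 0.295, adjusted p = 0.00654). Alpha-globulin averaged 6116 ± 636 CPM in SAT × SSA and 11905 ± 2832 CPM in SAT, and its log2 fold change of -0.96 (SE 0.262) had an adjusted p of 0.0193. For 7 of the 8 members, all but Os07g0216600, the 3 SAT × SSA libraries lay below the 3 SAT libraries, which 15.6% of genes showed. The call of Os07g0215500 was lost without any single library of the 6, with adjusted p-values from 0.0119 to 0.0354, and without the filter on low counts (0.0110). DESeq2 called 6 members lower, against 5.52% of the genes it tested. In edgeR, 6 were lower at a limit of 0.05, against 7.6% of genes, and 6 in a fit of the SAT × SSA and SAT libraries alone, against 2.01%. The number of genes called in this comparison, 1140, was also unsteady, with 170 without SAT replicate 1, 229 without SAT × SSA replicate 2 and 270 without SAT × SSA replicate 1.

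**Figure D2:**
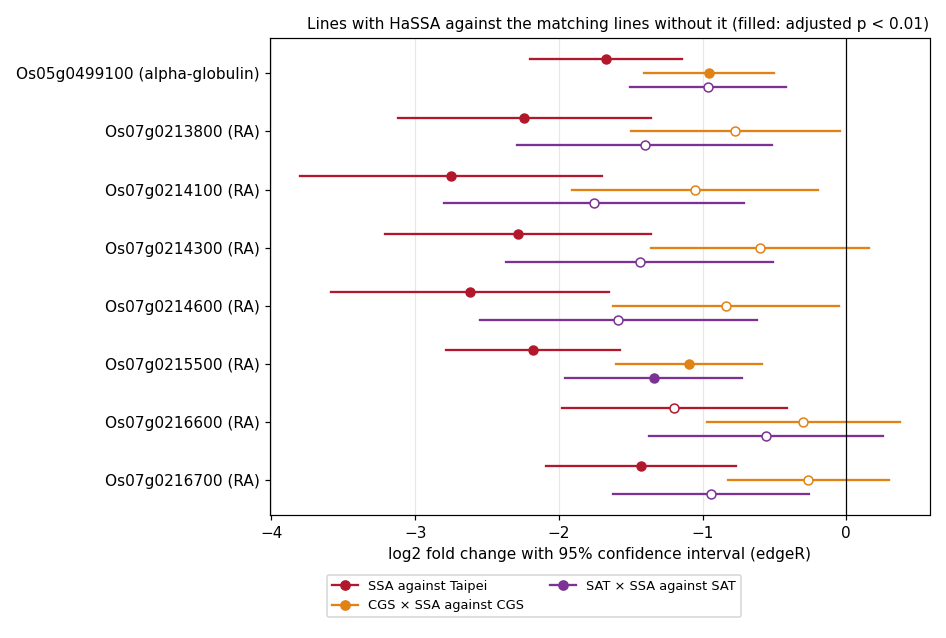
Log2 fold changes (points, horizontal axis) with 95% confidence intervals (lines) of the alpha-globulin gene and the 7 RA genes for the 3 pairs of lines that differ by HaSSA. All 24 estimates lie below 0, and they are filled where the adjusted p is under 0.01, which is so for 7 members in SSA against Taipei, 2 in CGS × SSA against CGS and 1 in SAT × SSA against SAT.

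Against Taipei, which the double lines share as a control with SSA, CGS and SAT, 1 member fell in each double line, and in both it was Os07g0215500. In CGS × SSA its log2 fold change was -1.47 (SE 0.256, adjusted p = 0.00181), where 0.287% of genes were called lower. In SAT × SSA it was -1.36 (SE 0.281, adjusted p = 0.00870), where 0.436% were called lower. Alpha-globulin stood at -1.06 (adjusted p = 0.0118) in CGS × SSA and at -1.09 (adjusted p = 0.0154) in SAT × SSA, and DESeq2 called it lower in both, against 0.523% of genes in CGS × SSA and 1.69% in SAT × SSA. Every library lay below Taipei for 6 of the 8 members in CGS × SSA, against 3.7% of genes, and for 7 in SAT × SSA, against 9.56% of genes. The call in CGS × SSA was lost without its replicate 2 (adjusted p = 0.0106) or 3 (adjusted p = 0.0112). That in SAT × SSA was lost without any of the 7 libraries, with adjusted p up to 0.0537. At a limit of 0.05, 2 members were lower in each double line. Genes called in all then rose from 291 to 463 in CGS × SSA and from 326 to 1238 in SAT × SSA. The genes called lower at that limit are at most these totals, out of 26821 tested, and their exact share is not given. In other settings but DESeq2, the added members are not set against all genes.

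The enzyme genes alone were not accompanied by a call in any member. In CGS against Taipei the log2 fold changes ran from -0.43 for Os07g0214300 to 0.10 for Os07g0216600, and none of the 8 passed in edgeR or DESeq2 or had an unadjusted p under 0.05, while 1.36% of genes were called lower and 2.34% higher. In SAT against Taipei they ran from -0.13 for alpha-globulin to 0.28 for Os07g0213800, likewise with none under an unadjusted p of 0.05 and no call in DESeq2, while 0.302% of genes were called lower and 0.388% higher. The intervals bound what was seen. For alpha-globulin the 95% interval ran from -0.54 to 0.35 in CGS and from -0.64 to 0.37 in SAT, so a fall of the size found in SSA lies outside both. The interval of Os07g0215500 ran from -0.86 to 0.12 in CGS and from -0.59 to 0.54 in SAT. The other RA intervals are wider, such as -0.68 to 1.21 for Os07g0214100 in SAT.

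Where HaSSA was present, all 8 members had higher estimates in the double lines than in SSA, and none passed the test. In CGS × SSA against SSA the log2 fold changes ran from 0.62 for alpha-globulin (SE 0.246, adjusted p = 0.377) to 1.49 for Os07g0214100 (SE 0.472, adjusted p = 0.262). All 8 had an unadjusted p under 0.05, which 4.99% of genes had in that direction, while 0.0485% of genes were called higher. Every library of CGS × SSA lay above every SSA library for 4 members, against 5.12% of genes. In SAT × SSA against SSA they ran from 0.58 for alpha-globulin (SE 0.260, adjusted p = 0.414) to 1.25 for Os07g0214100 (SE 0.490, adjusted p = 0.328), and 6 had an unadjusted p under 0.05, against 5.01% of genes, while 0.164% were called higher. Here 7 members did not overlap, against 6.64% of genes. DESeq2 called none in either comparison.

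These estimates were lower without SSA replicate 3. With it left out, alpha-globulin stood at 0.31 (adjusted p = 0.954) in CGS × SSA against SSA and at 0.27 (adjusted p = 0.800) in SAT × SSA against SSA. Os07g0214100 then stood at 1.02 (adjusted p = 0.788) in CGS × SSA and at 0.78 (adjusted p = 0.535) in SAT × SSA. All 16 estimates stayed above 0.

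Whether HaSSA went with a smaller fall in the presence of an enzyme gene was tested as the difference between the fall in the double line and that in SSA. For AtD-CGS, all 8 differences were above 0, from 0.71 for alpha-globulin (SE 0.324, adjusted p = 0.296) to 1.78 for Os07g0214600 (SE 0.566, adjusted p = 0.138). None passed in edgeR or DESeq2, 7 had an unadjusted p under 0.05, which 7% of genes had in that direction, and 0.119% of genes were called higher. For EcSAT, the differences ran from 0.49 for Os07g0216700 (SE 0.444, adjusted p = 0.680) to 1.03 for Os07g0214600 (SE 0.618, adjusted p = 0.490). None passed there either with edgeR or DESeq2, 1 had an unadjusted p under 0.05, against 6.26% of genes, and 0.0969% of genes were called higher. Without SSA replicate 3, the differences with AtD-CGS ran from 0.40 for alpha-globulin (adjusted p = 0.689) to 1.30 for Os07g0214600 (adjusted p = 0.145). Those with EcSAT then ran from 0.10 for Os07g0216700 (adjusted p = 0.942) to 0.56 for Os07g0214600 (adjusted p = 0.626), with 0.40 for alpha-globulin (adjusted p = 0.649). With all libraries, the 95% interval of the difference for alpha-globulin ran from 0.041 to 1.39 with AtD-CGS and from -0.03 to 1.45 with EcSAT. The differences with AtD-CGS and with EcSAT share the SSA and Taipei libraries, so they are not independent.

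**Figure D3:**
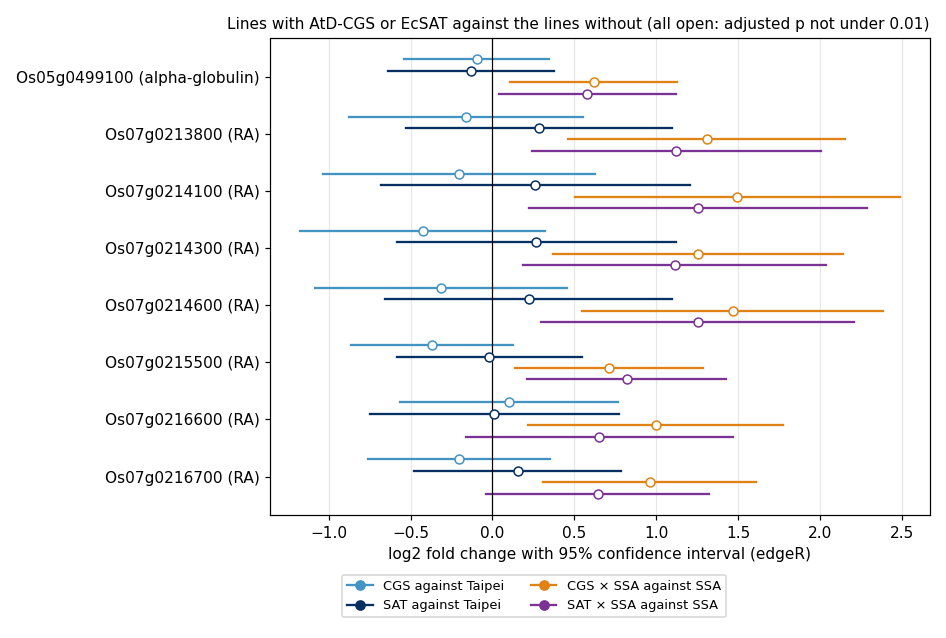
Log2 fold changes (points, horizontal axis) with 95% confidence intervals (lines) of the 8 members where an enzyme gene is added, without HaSSA (CGS and SAT against Taipei) and with it (CGS × SSA and SAT × SSA against SSA). The estimates without HaSSA lie between -0.43 and 0.28, those with it between 0.58 and 1.49, and no point is filled because no adjusted p is under 0.01.

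As a share of the reads of a library, the members took less in seeds with HaSSA. The 8 genes together took 0.490% to 2.54% of the reads in genes in the 10 libraries with HaSSA and 2.62% to 4.53% in the 12 without. The RA genes took 0.246% to 1.77% with HaSSA, and the range was 1.69% to 3.09% without. Alpha-globulin took 0.244% to 0.766% with HaSSA and 0.933% to 1.45% without. The low end of each range with HaSSA is SSA replicate 3. The next lowest libraries with HaSSA stood at 1.49% for the 8 genes, 0.929% for RA and 0.546% for alpha-globulin.

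**Figure D4:**
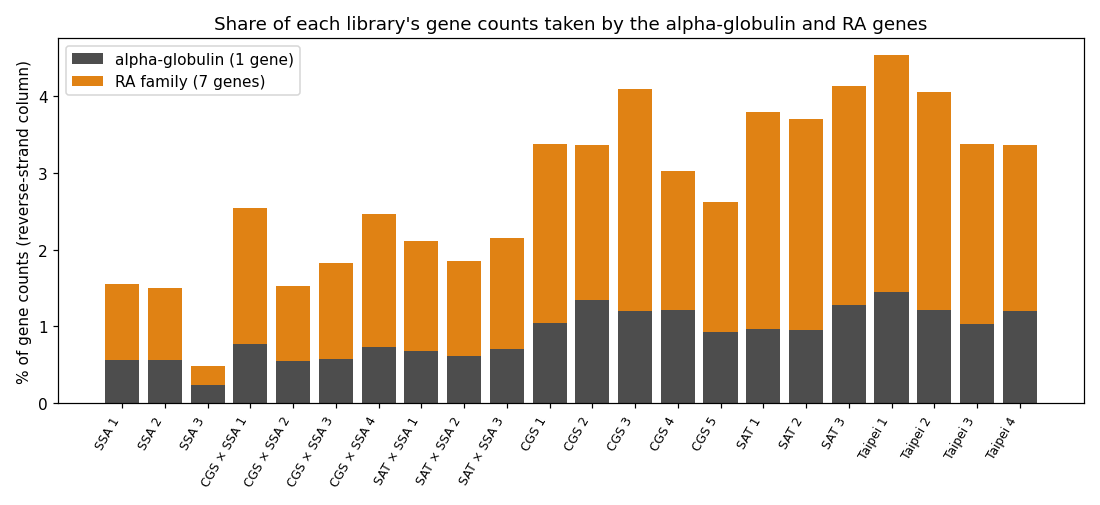
Share of the reads in genes (vertical axis, in percent, from 0) that alpha-globulin (grey) and the 7 RA genes together (orange) took in each of the 22 libraries (horizontal axis, by line and replicate). The stacked bars reach 0.490% to 2.54% in libraries with HaSSA and 2.62% to 4.53% in those without. The lowest bar is SSA replicate 3, and the next lowest with HaSSA stands at 1.49%.

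The balance between alpha-globulin and the RA family overlapped between the lines. Alpha-globulin made up 35.0% ± 5.81 of the reads of the 8 genes with HaSSA (SD, n = 10) and 32.2% ± 4.74 without (n = 12). SSA replicate 3, at 49.8%, stood highest of the 22, and the other 9 libraries with HaSSA lay between 29.6% and 37.8%, within the range of 25.5% to 40.0% without HaSSA. Such shares do not depend on the scaling between libraries, though they do depend on gene length and on which reads map uniquely.

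Within the RA family, the make-up of the reads differed between seeds with and without HaSSA. Os07g0216700 took 13.7% ± 1.75 of the RA reads with HaSSA (SD, n = 10) and 9.54% ± 0.810 without (n = 12), and its range of 11.6% to 17.3% with HaSSA did not overlap that of 8.37% to 10.5% without. Os07g0216600 took 10.0% ± 1.40 with HaSSA and 6.30% ± 1.48 without. The ranges of Os07g0216600 overlapped, 7.10% to 11.5% with HaSSA and 4.24% to 9.01% without. Os07g0214100 took 3.82% ± 0.820 with HaSSA and 5.30% ± 0.548 without, and Os07g0214600 took 7.62% ± 1.45 with HaSSA and 9.44% ± 0.447 without. The shares of these and of the remaining RA genes overlapped. These shares are given as a description of libraries and were not put to a test.

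**Figure D5:**
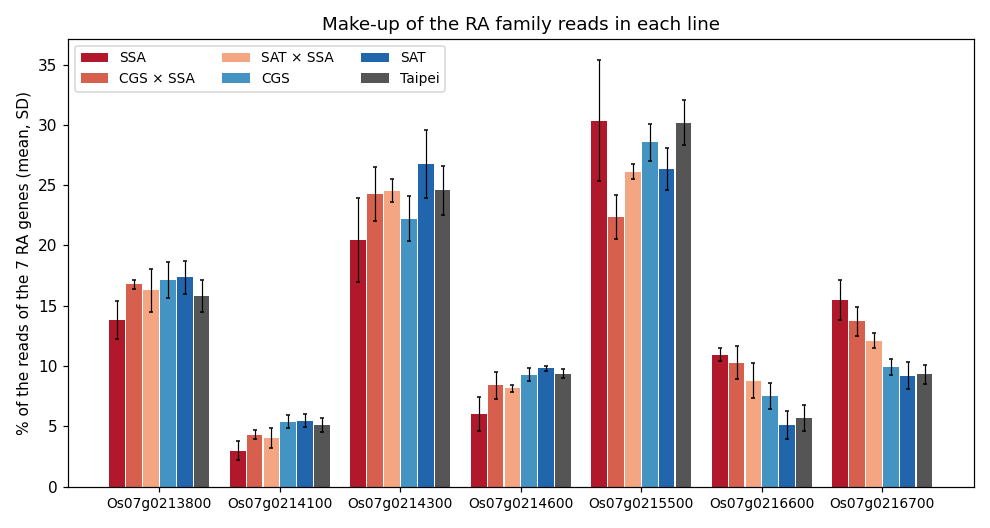
Share of the RA reads that each of the 7 RA genes took (vertical axis, in percent, from 0) in the 6 lines (bars, mean over libraries, with SD as error bars). Os07g0216600 and Os07g0216700 take more in the 3 lines with HaSSA, at 10.0% and 13.7% on average, than in those without, at 6.30% and 9.54%, while Os07g0214100 and Os07g0214600 take less.

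The members varied together from library to library. Over the 10 libraries with HaSSA, the Pearson correlation of log2 CPM between 2 members had a median of 0.984 over the 28 pairs, from 0.944 to 0.999. Without SSA replicate 3 the median was 0.915, from 0.676 to 0.995. Over the 12 libraries without HaSSA the median was 0.804, from 0.211 for alpha-globulin with Os07g0214300 to 0.960. These are descriptions over libraries that share a scaling, and no p was computed. CGS × SSA replicate 2 was the lowest library of its line for all 8 members, and CGS replicate 5 likewise in CGS.

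Over all 22 libraries, where the correlation also holds the difference between seeds with and without HaSSA, each member had the 7 others among the 100 most alike of 12109 genes with a mean of at least 10 CPM. The gene most like alpha-globulin was Os07g0215500 (r = 0.973), followed by Os10g0400200 (r = 0.970) and Os01g0762500 (r = 0.966), both of which are on the list of glutelins used here. In turn, the genes nearest to Os07g0215500 were Os03g0130300 (r = 0.988), Os10g0400200 (r = 0.985) and Os07g0222000 (r = 0.975). By rank correlation, those nearest to alpha-globulin were Os07g0206500 (0.945), Os01g0607400 (0.941) and Os01g0762500 (0.939). Os07g0213800 and Os07g0214300 were each other's nearest (r = 0.993), and Os07g0214100 and Os07g0214600 followed each other at r = 0.990. Os07g0216600 was least like the rest, its nearest being Os07g0216700 (r = 0.947). By rank correlation, the number of other members among the nearest 100 genes was 3 for Os07g0216600 and 6 or 7 for each of the others.

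Other storage protein genes were taken as lists. They were written from general knowledge of rice identifiers, which could not be checked here against an annotation, so they are described as lists. In the mean over the 3 pairs of lines that differ by HaSSA, 5 of 12 glutelins were lower and none higher, with a median log2 fold change of -0.33 and a range from -1.41 to 0.36. Of all genes tested, 6.11% were lower and 6.14% higher in that mean. Of 22 prolamins listed, 20 are in the tables and 18 passed the filter, of which 7 were lower and none higher (median -0.38), and the largest fall among them, -2.68 on the log2 scale, was beyond that of any member. The prolamin estimates in this mean ran up to 2.95 (SE 1.45, adjusted p = 0.153), in a gene with few reads: its mean was 19.6 CPM with HaSSA and 0.978 CPM without. Prolamin calls went both ways in single pairs: 5 were lower and 4 higher in SSA against Taipei, and 6 lower and 2 higher in CGS × SSA against CGS. Among the 26821 genes tested, 659 were called in SSA against Taipei, 25.6% of them lower, and 1038 in CGS × SSA against CGS, 53.0% of them lower. The genes called lower were 0.63% of all genes tested in SSA against Taipei and 2.05% in CGS × SSA against CGS. No prolamin was called in SAT × SSA against SAT, where 17 of 18 estimates were below 0. Neither of the 2 genes listed as other globulins passed in any pair, and the pairs differed in sign. With the genes in the same order, their log2 fold changes were -0.44 and -0.19 in SSA against Taipei and 0.26 and 0.18 in CGS × SSA against CGS. They were -1.27 and -1.09 in SAT × SSA against SAT, where alpha-globulin stood at -0.96. The genes listed for RISBZ1 and RPBF, transcription factors that act on storage protein promoters, did not pass either, with estimates of -0.18 and -0.11 for the mean over pairs and summed levels of 454 to 653 CPM with HaSSA and 446 to 740 CPM without. The difference between these lists and the members was not tested. In summed level, the glutelins had 54138 to 101687 CPM with HaSSA and 113635 to 171369 CPM without, and the prolamins 6873 to 31046 CPM with HaSSA and 32681 to 77105 CPM without.

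Markers of seed tissues were looked at in the same way. Of 7 endosperm markers, mostly genes of starch synthesis, none passed the test in the mean over pairs, and all 7 estimates were below 0 (median -0.20). Their summed level was 13300 to 18434 CPM in the libraries with HaSSA and 15579 to 21562 CPM in those without. Of 4 embryo and aleurone markers, 1 of which is also on the list of other globulins, none passed (median -0.24), with summed levels of 3271 to 7899 CPM with HaSSA and 3623 to 8198 CPM without. Of 8 markers of green pericarp none passed (median -0.01), with 3864 to 5592 CPM with HaSSA and 4116 to 6893 CPM without. Single pairs differed more than the mean. The 4 embryo and aleurone markers had a median of -0.79 in SAT × SSA against SAT, all below 0 with the lowest at -1.27, of -0.32 in SSA against Taipei, all below 0, and of 0.31 in CGS × SSA against CGS, all above 0, and none was called. The endosperm markers had medians of -0.31 in SAT × SSA against SAT, -0.21 in SSA against Taipei and 0.043 in CGS × SSA against CGS. Of the green pericarp markers, 4 were higher in CGS against Taipei, where 2.34% of all genes tested were called higher. In CGS × SSA against CGS 1 was lower, where 2.05% of all genes tested were called lower. No marker of these lists was at 0 in all 22 libraries, and their part in the fall of the members was not tested.

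The identifiers of the RA genes stand close together. Of 4 other identifiers between Os07g0213800 and Os07g0216700, 2 passed the filter, with means of at most 32.3 CPM, and neither passed the test in the mean over pairs, with log2 fold changes of 0.13 and -0.22. Of the 20 identifiers before the family 17 passed the filter, of which 1 was lower and 1 higher. Of the 20 after it 13 passed the filter, again with 1 lower and 1 higher. In the same mean, 6.11% of all genes tested were called lower and 6.14% higher.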

How the data were processed

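The authors sequenced rRNA-depleted, strand-specific libraries as single-end reads of 150 bases, aligned them against IRGSP-1.0 with STAR 2.7.1a and Ensembl annotation release 43, and deposited raw counts of uniquely mapped reads per gene, not normalized, for 22 libraries of 6 lines. The column of counts on the strand that the protocol reads was used, as in the study. Groups and replicate numbers come from the labels.

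The members and lists were chosen with earlier results of these data known. Genes kept by filterByExpr (26821 of 38866) were scaled by TMM. For the 12 comparisons, 1 quasi-likelihood model with line as its only factor was fitted robustly to all 22 libraries in edgeR 4.0.16 under R 4.3.3. Two-sided p-values were corrected over the 26821 genes by the Benjamini-Hochberg method. SE is the standard error of the log2 fold change. All members were tested in every comparison, and in most comparisons the text gives values for only some of them. Other genes are named for likeness, as are the listed regulators RISBZ1 and RPBF. The storage lists are given by counts, medians and ranges, with single estimates for the other globulins and the prolamin extremes. The script was tested on simulated data. No gene annotation or sequence for these identifiers was used here. Alternatives were DESeq2 1.42.0, other scalings, filters, counting columns, limits and fits, the replicate number as a block, and leaving out libraries. No 2 libraries were identical.
The 22 libraries held 29642343 to 41585957 counts in genes (median 33829267), and the members at least 1795 counts in each, so that the spread between libraries limits the precision.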

Additional observations from a re-analysis of the deposited data

Results flagged for a closer look

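Os07g0216600 had 2370 CPM in Taipei replicate 1, far above the other 3 Taipei libraries at 1246 to 1384 CPM. Of 24 groups of 4 or 5 libraries examined this way, 8 genes in 3 lines, it was the 1 group in which a library stood this far from the rest, and chance sets about 1 in 20 groups apart. Without Taipei replicate 1, Os07g0216600 in SSA against Taipei kept its direction and missed the limit, as it did with all libraries.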

How the results depend on the processing

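Of 1120 log2 fold changes of members under other settings, 1068 kept their direction and their side of the limit, 19 missed the limit, 30 passed it and 3 turned in sign. Of 936 with 1 library left out, 888 kept both, 39 missed the limit and 9 turned. The mean over pairs had 7 or 8 members lower in every setting. In SSA against Taipei the count was 7, 6 in settings named above, and 0 with those groups alone. In CGS × SSA against Taipei it was 1 and became 2 with library totals, totals without storage genes, a limit of 0.05, those groups alone, or DESeq2. In SAT × SSA against Taipei it was 1 and became 2 with library totals or a limit of 0.05, 3 with those groups alone, 4 with DESeq2, and 0 without a filter. In CGS × SSA against CGS it was 2, and 0 without a filter. In SAT × SSA against SAT it was 1 and became 0 without a filter, 6 with a limit of 0.05, those groups alone, or DESeq2, and 2 without SSA replicate 3 and SAT × SSA replicate 1, chosen after seeing the data. With 1 library left out these counts ran from 4 to 7, 0 to 1, 0 to 0, 0 to 2 and 0 to 0 in this order. Against Taipei, only the DESeq2 rises were set against all genes. The cause was not tested.

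Replicate numbers gave no clear sign of pairing the libraries. Deviations from the line means correlated over 0.1 in 17 of 48 pairs with the same number (median 0.05). Of pairs with other numbers, 54 of 152 did (median 0.008). With the replicate block, the count of members lower became 0 in SAT × SSA against Taipei, in CGS × SSA against CGS and in SAT × SSA against SAT, Os07g0216700 missed the limit in SSA against Taipei (adjusted p = 0.0245), and the log2 fold change of Os05g0499100 in CGS against Taipei was 0.0027. It ran from -0.18 to 0.023 with 1 library left out. The others that turned were Os07g0216600 in SAT against Taipei, at -0.054 with library totals and -0.032 with totals without storage genes, and from -0.26 to 0.27 with 1 library left out, Os07g0216700 (-0.019 to 0.30) and Os07g0215500 there (-0.14 to 0.092), and Os07g0216600 in CGS × SSA against Taipei (-0.39 to 0.058). None was called.

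Library totals without TMM moved the all-gene median to 0.25 in SSA against Taipei, 0.16 in CGS × SSA and 0.23 in SAT × SSA against Taipei, 0.15 in CGS × SSA against CGS, 0.30 in SAT × SSA against SAT and 0.23 in the mean over pairs. It was -0.10 in CGS × SSA against SSA and -0.12 in the difference with AtD-CGS. The share of lower among all called genes then became 2.20% (25.6% with TMM), 9.28% (26.5%), 4.79% (35.9%), 12.8% (53.0%), 8.31% (62.5%), 3.49% (49.9%), 69.7% (56.7%) and 80% (68.6%) in that order. With totals without storage genes, which moved the median to 0.13 in SAT × SSA against SAT, it became 21.5% in SAT × SSA against Taipei, 30.9% in SAT × SSA against SAT and 29.0% in the mean over pairs.

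Genes called in all, with the lowest and highest count under other settings and with 1 library left out, were 659 (247 to 2999) in SSA, 991 (367 to 2476) in CGS, 185 (97 to 631) in SAT, 291 (207 to 463) in CGS × SSA and 326 (165 to 1544) in SAT × SSA against Taipei, 1038 (428 to 2431) in CGS × SSA against CGS, 1140 (170 to 4619) in SAT × SSA against SAT, 30 (12 to 79) and 166 (57 to 295) in CGS × SSA and SAT × SSA against SSA, 102 (46 to 363) and 67 (37 to 229) in the differences with AtD-CGS and EcSAT, and 3288 (2061 to 10316) in the mean over pairs. Leaving out 1 library moved these counts, and the shares of genes called that rest on them, by over 1.5 times for 5 of the 7 libraries in SSA against Taipei (all but SSA replicate 2 and Taipei replicate 4), 5 of the 7 in SAT × SSA against Taipei (all but SAT × SSA replicate 3 and Taipei replicate 4) and 5 of the 6 in SAT × SSA against SAT (all but SAT × SSA replicate 3), for none in CGS × SSA against Taipei or the mean over pairs, and for at least 1 in each other comparison.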
